A study of Bos taurus with 8 samples.

Results

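Lipolysis enzymes and PNPLA proteins release fatty acids from stored lipid and membrane phospholipids. Here 9 genes of this group were followed in day 6 cattle embryos of Holstein and Jersey: PNPLA2, ABHD5, PNPLA3, LIPE, MGLL, PNPLA6, PNPLA8, DDHD1 and DDHD2. They were found by gene symbol, older synonyms included, in the annotation of the EmbryoGENE array. They are 9 of the 15215 genes named there and had 19 of its 43794 single probes, and 16 of the 19, from 8 genes, had a signal above background. The genes lie on chromosomes 29, 22, 5, 18, 22, 7, 4, 10 and 27 in the order given, so that ABHD5 and MGLL share one and none is X-linked.

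The study compared Holstein embryos, labelled as having good cryotolerance, with Jersey embryos, labelled as performing poorly after freezing. Follicles larger than 8 mm were aspirated first, and donors of both breeds were then superovulated with FSH, 400 mg in total. A prostaglandin F2α analogue (500 µg) accompanied the final FSH injections, and a semen pool was used for insemination. Embryos were flushed from the uterus on day 6. No genetic change was made, and how many donors or embryos went into a replicate is not given in the sources used here. Each of 8 arrays carried both breeds, with Holstein in the Cy5 channel of 4 and in the Cy3 channel of the other 4. The 2 slides had 4 arrays each, and the arrays form 4 dye-swap pairs.

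Fat is kept in cells as triglyceride within lipid droplets, which are abundant in cattle oocytes and embryos. In adipose tissue triglyceride is broken down in steps: PNPLA2 (adipose triglyceride lipase), stimulated by its co-activator ABHD5, removes the first fatty acid, LIPE (hormone-sensitive lipase) cleaves the diglyceride that remains, and MGLL cleaves the monoglyceride. PNPLA3 is a related droplet protein. PNPLA6, PNPLA8 and DDHD1 act mainly on phospholipids, and DDHD2 acts on triglyceride as well as phospholipids. The lipid content of embryos has long been studied in connection with freezing.

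In the embryos themselves, 9 of 10 fixed markers, among them POU5F1, CDX2, KRT8 and KRT18, were on the array under the listed symbol, and all 9 passed the filter on dim probes. Of 6 adipocyte markers PLIN1 did not pass the filter, and the summed signal of the other 5 (ADIPOQ, LEP, CIDEC, FABP4 and RETN) was 799.8 to 838 in Holstein and 769 to 867 in Jersey. ADIPOQ, FABP4 and RETN were above background on 3 to 5 of 8 arrays per breed, and LEP and CIDEC on 7 or 8. The sum therefore holds much signal near background and does not show that adipocyte transcripts were present. Erythrocyte markers summed to 1341 to 1763 in Holstein and 1937 to 5758 in Jersey over 7 genes, and leukocyte markers to 1058 to 1775 and 1549 to 2231 over 5 of 7 (ITGAM and CSF1R did not pass). Both sums were higher in Jersey in 4 of 4 pairs. By mean log2(Holstein / Jersey), 5 erythrocyte markers were below 0 and 2 above, and 4 leukocyte markers below and 1 above. The median ratio of the erythrocyte genes was -0.33, -0.06, -0.02 and 0.009 in the pairs. HBG, whose mean was the farthest from 0 among them, was at -4.22, -3.84, 0.13 and 0.16. The median ratio of the leukocyte genes was 0.06, -0.31, -0.08 and -0.14. Cumulus and granulosa markers, 4 of 7 without FSHR, AMH and FOXL2, had higher sums in Holstein in 4 of 4 pairs, at 1316 to 1720 against 964 to 1557. By the brightest probe of a gene, 3 had a mean above 0 and 1, HAS2, below. Other tested probes of CYP19A1 were also above 0, at 0.48 and 0.07. STAR was at 0.09 by its brightest probe and at -0.19 and -0.12 by its others, the last kept through Jersey alone. The median ratio of the 4 cumulus and granulosa genes was 0.22, 0.47, -0.005 and 0.22 in the pairs. Uterine markers, 4 of 7 without PGR, FOXA2 and ESR1, summed to 580.0 to 775 in Holstein and 589 to 659.8 in Jersey. They were above background on 3 to 7 of 8 arrays per breed, so this sum too lies near background. The part of these cells in the ratios below was not tested. In RNA of whole embryos, fewer cells of a type and less RNA per cell cannot be told apart.

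Signals are given below as log2 of the normalized intensity of a probe, and breed differences as log2(Holstein / Jersey), with values above 0 meaning more signal in Holstein. A constant of 50 was added during background correction, which pulls the ratios of dim probes towards 0. The deposited value table runs the other way, as Jersey over Holstein, when it is set against the dyes in the labels. A probe counted as above background on an array when it lay more than 2 SD over the average negative control spot, a limit between 162 and 271 intensity units in Cy5 and between 185 and 337 in Cy3. Levels of different probes are not compared, because probes differ in how well they bind.

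None of the 16 probes differed between the breeds after adjustment over all 32129 probes tested, as was the case for every probe of the array (limma on 4 pair means, 0% past an adjusted p of 0.05). The adjusted p of the 16 ran from 0.226 to 0.991. For 3 of them, one each of PNPLA6, DDHD1 and DDHD2, the unadjusted p was under 0.05, which is 18.8% against 14% of all probes tested. Of these 3, the PNPLA6 and DDHD2 probes had a mean above 0 and the DDHD1 probe below. Among all probes 6.61% had an unadjusted p under 0.05 with a mean above 0, and 7.34% with a mean below. Of the 16, 9 had a mean above 0, where the array as a whole had 50.7%, and their median ratio was 0.03 beside 0.002 for all probes. In both breeds 14 of the 16 passed the filter on dim probes. ABHD5 EMBV3_37440 and MGLL EMBV3_26309, both with a mean above 0, passed it through Holstein alone, so this count leans towards Holstein. The ratio had 1 sign in all 4 pairs for 4 of the 16 probes, against 22% of the array. On all 8 arrays it had 1 sign for none of them, against 5.03%. With the pair as a random block in a fit of 8 arrays, 0 of the 16 passed, while 3.77% of all probes did. In that fit 3 of the 16 had an unadjusted p under 0.05, against 5337 of 32033 probes.

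**Figure D1:**
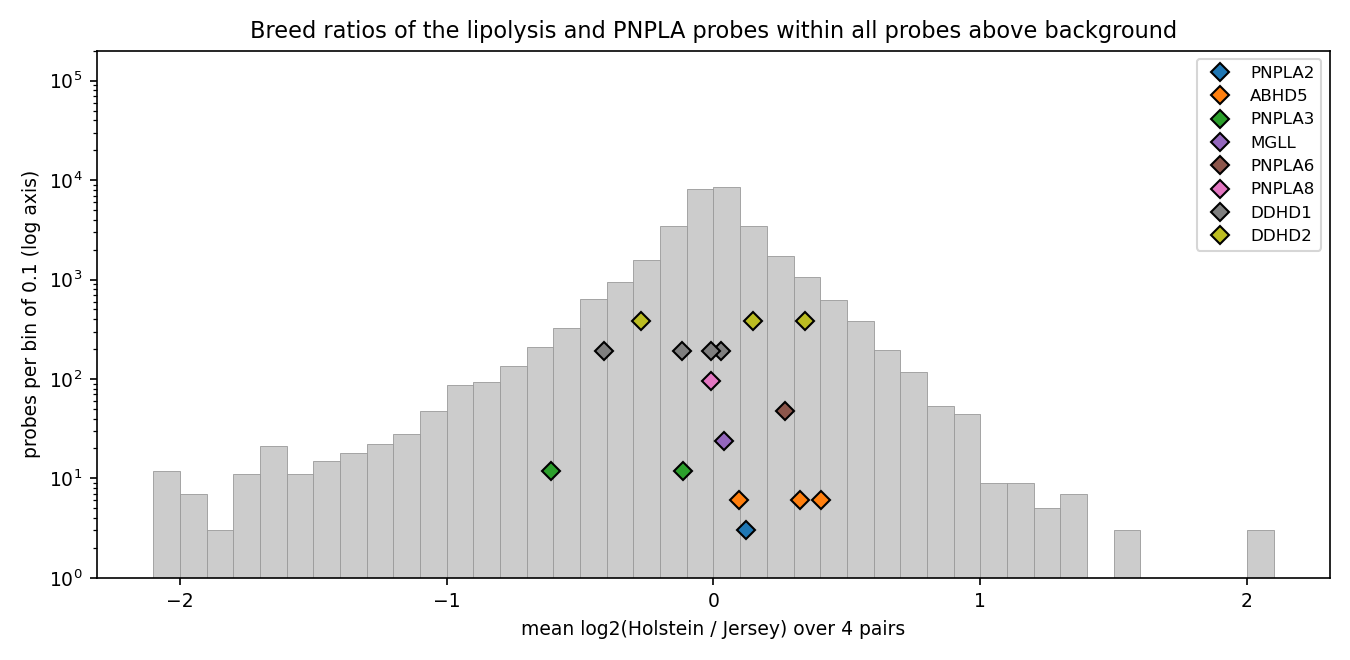
Mean log2(Holstein / Jersey) over 4 pairs for all 32129 probes above background (grey bars, number of probes per bin of 0.1 on a log axis, values beyond 2 in either direction pooled in the end bins), with the 16 probes of 8 genes as diamonds; the height of a diamond only separates the genes. The diamonds run from -0.61 (PNPLA3) to 0.40 (ABHD5). The bins of these 2 ends, centred at -0.65 and 0.45, hold 209 and 623 probes, against 8545 in the bin at 0.05.

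PNPLA2, the lipase of the first step, gave a strong signal in embryos of both breeds through probe EMBV3_20061. It was above background on 8 of 8 arrays in each breed, with raw intensities of 923 to 3495 (median 1556) in Holstein and 1205 to 1843 (median 1597) in Jersey. Holstein levels were 10.10, 11.60, 10.88 and 10.04 in pairs 1 to 4. Jersey levels were 10.71, 10.61, 10.51 and 10.28. The Jersey samples therefore lay inside the range of the Holstein samples, of which pairs 2 and 3 were high and pairs 1 and 4 low.

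The breed ratio of PNPLA2 was -0.62, 0.99, 0.36 and -0.25 in the 4 pairs, so that 2 pairs favoured each breed. Its mean was 0.12 ± 0.27 (moderated SE, n = 4 pairs; limma adjusted p = 0.908), with a 95% interval of -0.57 to 0.81. In pair 2 the Holstein signal was 1.98-fold the Jersey signal, and in pair 1 it was 0.652 of it. The 2 arrays of a pair, which hold the breeds in opposite dyes, differed by at most 0.39. The SD over pairs, 0.70, exceeded that of 96.1% of all probes tested. That set includes dim probes, whose ratios the added constant shrinks, and probes of like intensity were not compared apart. Slide means were 0.18 and 0.06, and leaving out pair 2 turned the mean to -0.17. The second PNPLA2 probe, EMBV3_25210, was dim, above background on 0 arrays for Holstein and 1 for Jersey, and was not tested.

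ABHD5, also called CGI-58, binds PNPLA2 and raises its activity. Its brightest probe, EMBV3_42326, was above background on 8 arrays in Holstein and 7 in Jersey. Holstein levels were 8.24, 8.71, 8.59 and 7.87, and Jersey levels 8.44, 7.66, 7.41 and 8.26. In pairs 2 and 3 the Holstein sample was the higher, by 2.06-fold and 2.25-fold, while in pairs 1 and 4 it was the lower, at 0.868 and 0.762 of the Jersey signal. The levels of the breeds overlapped. The mean ratio was 0.40 ± 0.31 (n = 4 pairs; limma adjusted p = 0.662), with an interval of -0.39 to 1.20 and slide means of 0.42 and 0.39.

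A second ABHD5 probe, EMBV3_42499, gave pair ratios of -0.22, 0.76, 0.71 and 0.04, with a mean of 0.32 ± 0.19 (limma adjusted p = 0.552). The dimmer EMBV3_37440 gave -0.02, 0.11, 0.27 and 0.02, with a mean of 0.09 ± 0.08. It was above background on 5 arrays in Holstein and 3 in Jersey, so it passed the filter through Holstein alone. In each of the 3 probes pairs 2 and 3 had the highest ratios, and pairs 1 and 4 the lowest. The mean of EMBV3_42326 ran from 0.15 to 0.67 as single pairs were left out, 0.15 without pair 3 and 0.19 without pair 2. That of EMBV3_42499 ran from 0.18 without pair 2 to 0.50 without pair 1.

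**Figure D2:**
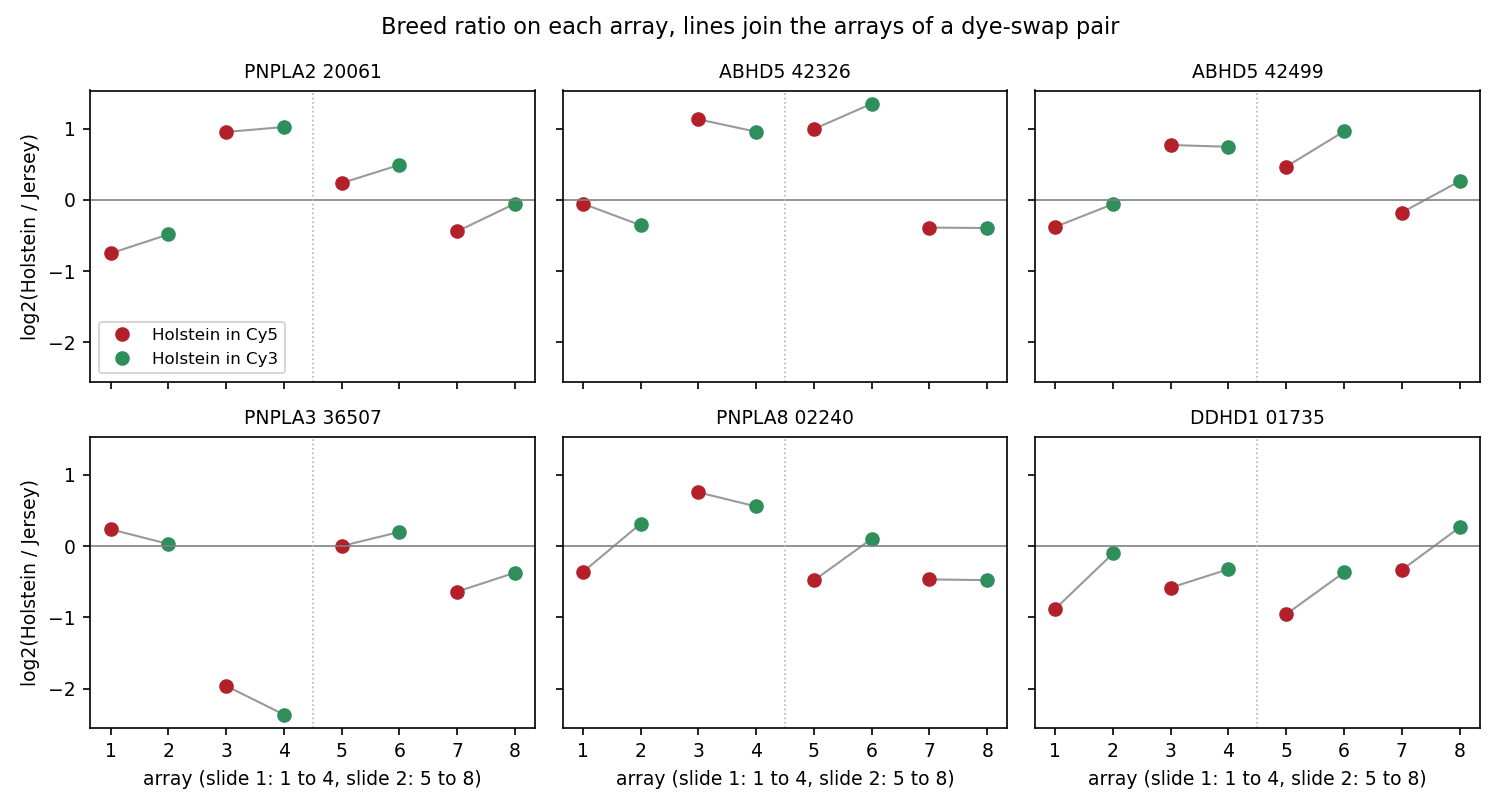
Log2(Holstein / Jersey) on each of the 8 arrays (x axis, dotted line between the slides) for 6 probes of 5 genes, coloured by the dye of Holstein, with grey lines joining the arrays of a dye-swap pair. For PNPLA2, ABHD5 EMBV3_42326 and PNPLA3 the arrays of a pair differ by at most 0.39, 0.35 and 0.40, while the pairs span 1.60, 1.56 and 2.29.

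Within pairs the dye swaps agreed on these ratios, while the pairs disagreed with each other. For ABHD5 EMBV3_42326 the arrays of a pair differed by at most 0.35, and the pairs spanned 1.56. Its SD over pairs exceeded that of 97.6% of all probes tested, dim ones included. Which arrays belong together is not in the labels, and the matching was chosen for the agreement of arrays over all probes, so closeness within a pair was partly selected for. The pairing does not enter the per-array values: the ratio of ABHD5 EMBV3_42326 was 1.13 and 0.96 on arrays 3 and 4, 0.99 and 1.35 on arrays 5 and 6, and between -0.39 and -0.05 on the other 4.

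PNPLA3, or adiponutrin, a lipid droplet protein whose common human variant is associated with fatty liver, had the mean farthest from 0 of the 16 probes. Probe EMBV3_36507 was above background on 8 of 8 arrays in both breeds. Holstein levels were 10.12, 8.47, 9.21 and 8.93, and Jersey levels 9.99, 10.63, 9.11 and 9.43. The ratios were 0.13, -2.16, 0.10 and -0.51, so that 2 pairs lay slightly above 0 and 2 below. In pair 2 Jersey was 4.48-fold higher, by -1.96 and -2.36 on its 2 arrays, and that pair held both the lowest Holstein and the highest Jersey level.

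The mean ratio of this PNPLA3 probe was -0.61 ± 0.41 (n = 4 pairs; limma adjusted p = 0.604), with an interval of -1.65 to 0.43. Without pair 2 it was -0.09. Slide means were -1.02 and -0.20, the first of which holds pair 2. Its SD over pairs, 1.08, exceeded that of 99.1% of the probes tested, dim ones included. The dimmer probe EMBV3_41781, above background on 4 arrays in Holstein and 5 in Jersey, had ratios of -0.26, -0.24, 0.07 and -0.02 and a mean of -0.11 ± 0.09. It gave -0.24 in pair 2, where the bright probe gave -2.16.

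**Figure D3:**
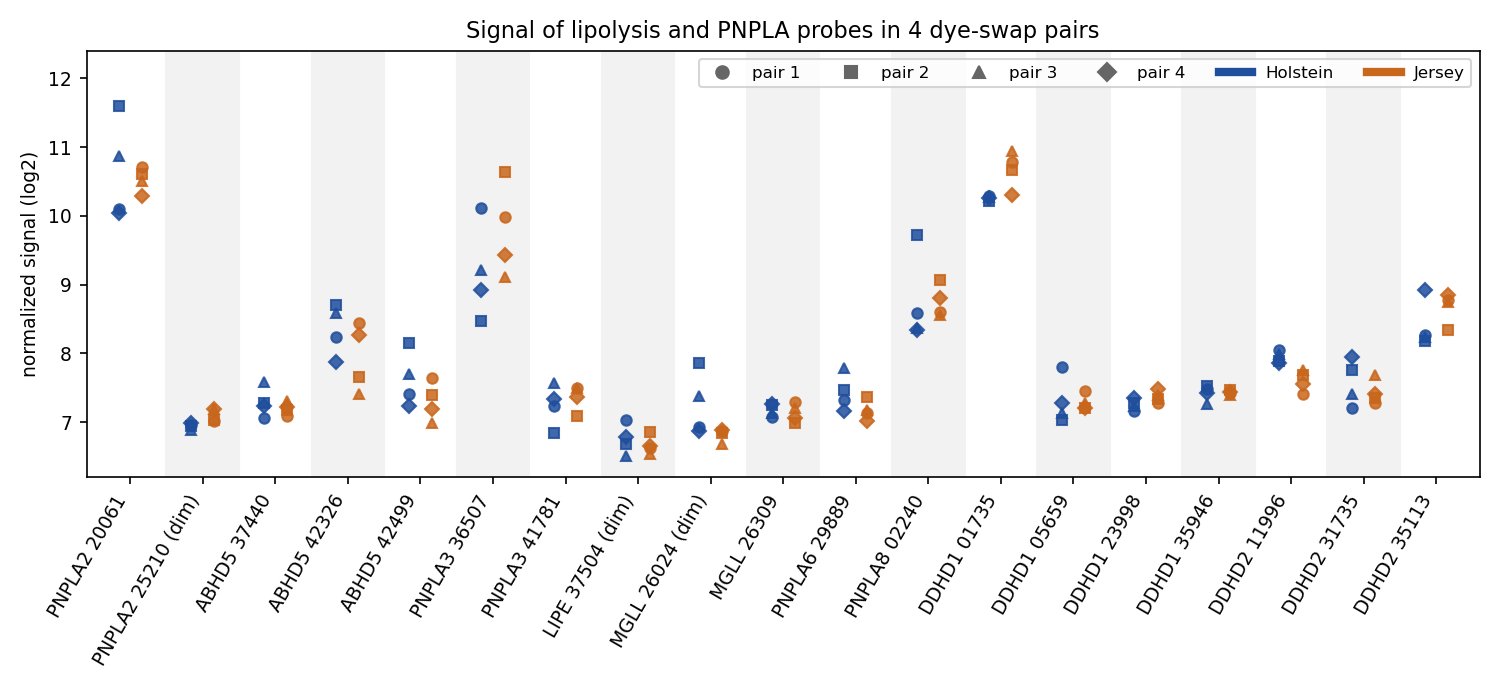
Normalized log2 signal of all 19 probes in Holstein (blue) and Jersey (orange), 1 point per dye-swap pair, with a marker shape for each pair; probes marked as dim were not tested. The breeds overlap in most columns, PNPLA2 and PNPLA8 spread more in Holstein, and DDHD1 EMBV3_01735 spreads more in Jersey. Heights are not comparable between probes.

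LIPE, which cleaves diglycerides and cholesteryl esters, was not well above background on any of the 8 arrays in either breed. Its probe, EMBV3_37504, gave raw intensities of 101 to 234 (median 181) in Holstein and 146 to 266 (median 174) in Jersey. No ratio is given for it. These values say that 1 probe gave no signal over the negative controls, and the transcript may lie below what the array can show.

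MGLL, the monoglyceride lipase that ends the cascade, had 2 probes close to the background limit. EMBV3_26309 was above it on 4 arrays in Holstein and 3 in Jersey, so it passed the filter through Holstein alone. Its ratios were -0.22, 0.25, -0.08 and 0.20, with a mean of 0.04 ± 0.10 (interval -0.22 to 0.30). Its Holstein levels were 7.07, 7.24, 7.13 and 7.27, and its Jersey levels 7.29, 6.99, 7.21 and 7.07, so that the breeds overlapped. Its ratio went with the dye: it averaged -0.44 on the arrays with Holstein in Cy5 and 0.51 on those with Holstein in Cy3, a difference of -0.95 (limma, 8 arrays, adjusted p = 0.00245). The other probe, EMBV3_26024, did not pass the filter, with 3 arrays above the limit in Holstein and 0 in Jersey. Its Holstein levels were 6.94, 7.86, 7.38 and 6.87, against 6.68 to 6.88 in Jersey, values that are mostly below the limit and carry no test.

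PNPLA6, the neuropathy target esterase, removes fatty acids from phosphatidylcholine and lysophosphatidylcholine. Its only probe, EMBV3_29889, was above background on 6 arrays in Holstein and 4 in Jersey. Holstein levels were 7.33, 7.47, 7.78 and 7.16, and Jersey levels 7.13, 7.36, 7.18 and 7.01, so that the groups overlapped. The ratios were 0.20, 0.12, 0.60 and 0.15, above 0 in 4 of 4 pairs and on 7 of 8 arrays. The mean was 0.27 ± 0.10, or 1.20-fold, with an unadjusted p of 0.0478 and a limma adjusted p of 0.354. Slide means were 0.16 and 0.38, and the mean without pair 3 was 0.15.

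PNPLA8, a calcium-independent phospholipase A2 of mitochondria and peroxisomes, was above background on 8 of 8 arrays in both breeds (EMBV3_02240). Holstein levels were 8.58, 9.72, 8.37 and 8.34, and Jersey levels 8.61, 9.07, 8.56 and 8.81. Pair 2 was the highest in each breed. The ratios of -0.03, 0.65, -0.19 and -0.47 averaged -0.009 ± 0.19 (limma adjusted p = 0.991), with an interval of -0.49 to 0.47. Slide means had opposite signs, 0.31 and -0.33, and the difference between slides did not pass (limma, unadjusted p = 0.0827). It was the smallest unadjusted slide p among the 16 probes, where 4.08% of all probes were under 0.05 and 0% passed after adjustment.

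**Figure D4:**
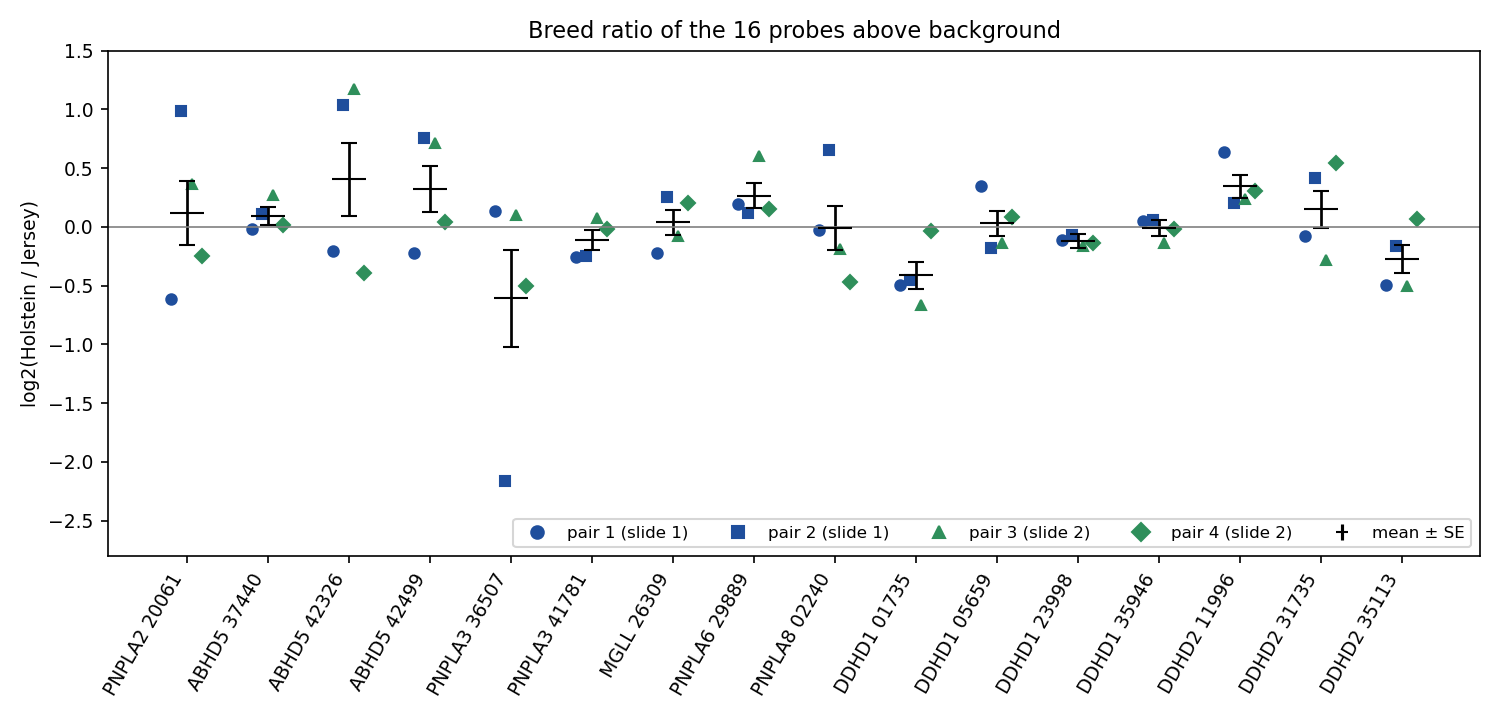
Log2(Holstein / Jersey) of the 16 tested probes in each pair (blue: slide 1, green: slide 2), with the mean over 4 pairs and its moderated SE in black. Pair 2 of PNPLA3 EMBV3_36507, at -2.16, is the lowest value, and the 4 pairs of PNPLA6, DDHD1 EMBV3_01735, DDHD1 EMBV3_23998 and DDHD2 EMBV3_11996 lie on 1 side of 0.

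DDHD1, a phospholipase A1 that prefers phosphatidic acid, had 4 probes, all of which were tested. The brightest, EMBV3_01735, was above background on 8 of 8 arrays in both breeds. Holstein levels were 10.29, 10.21, 10.27 and 10.26, an SD of 0.04, and Jersey levels 10.78, 10.66, 10.94 and 10.30, an SD of 0.27. Every Holstein sample lay below every Jersey sample, with the Jersey sample of pair 4 next to the Holstein range. The share of all probes that separate in this way is not given here. The ratios were -0.49, -0.45, -0.66 and -0.04.

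The mean ratio of that probe was -0.41 ± 0.12 (n = 4 pairs), 1.33-fold more signal in Jersey, with an interval of -0.71 to -0.12. It had an unadjusted p of 0.0152 and missed the threshold with a limma adjusted p of 0.232, and of 0.0652 with the pair as a random block. It was below 0 on 7 of 8 arrays, and slide means were -0.47 and -0.35. The dye also moved it, from -0.69 with Holstein in Cy5 to -0.13 with Holstein in Cy3 (limma adjusted p = 0.0258).

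The other DDHD1 probes, all dimmer, had means closer to 0. EMBV3_23998 averaged -0.12 ± 0.06, with ratios of -0.11, -0.07, -0.16 and -0.14, although it averaged 0.17 on the arrays with Holstein in Cy5 and -0.41 on the others (limma adjusted p of the dye = 0.014). EMBV3_05659 averaged 0.03 ± 0.11 and EMBV3_35946 -0.009 ± 0.07. Their intervals, -0.24 to 0.30 and -0.18 to 0.16, did not reach the mean of the bright probe. Both lie near background (above it on 5 and 6 arrays in Holstein, 4 and 5 in Jersey), where the added constant shrinks ratios, so a difference as large as that of the bright probe could be missed in them.

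DDHD2, which in mouse brain hydrolyses triglyceride and is also a phospholipase, had 3 tested probes that disagreed in direction. EMBV3_11996 was above background on 8 arrays in Holstein and 6 in Jersey. Holstein levels were 8.04, 7.89, 8.00 and 7.85, and Jersey levels 7.41, 7.69, 7.76 and 7.55. Every Holstein sample lay above every Jersey sample, but the share of all probes that separate so is not given here. The ratios of 0.63, 0.20, 0.24 and 0.30 averaged 0.34 ± 0.10, or 1.27-fold, with an interval of 0.10 to 0.59. The unadjusted p was 0.0139 and the limma adjusted p 0.226, with 7 of 8 arrays above 0 and slide means of 0.42 and 0.27.

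The brightest DDHD2 probe, EMBV3_35113, had ratios of -0.50, -0.16, -0.50 and 0.07 and a mean of -0.27 ± 0.12 (limma adjusted p = 0.410), with Holstein levels of 8.18 to 8.92 and Jersey levels of 8.34 to 8.85. It averaged 0.08 on the arrays with Holstein in Cy5 and -0.63 on the others (limma adjusted p of the dye = 0.021). EMBV3_31735 had ratios of -0.08, 0.42, -0.28 and 0.54 and a mean of 0.15 ± 0.16. The 3 means spanned 0.62. No direction is given for DDHD2 as a gene.

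Of the 4 genes with more than 1 tested probe, ABHD5 and PNPLA3 had their probes on 1 side of 0, with 1 ABHD5 probe kept through Holstein alone, and DDHD1 and DDHD2 did not. Over the array, 61.4% of genes with 2 tested probes, 44.7% with 3 and 29.8% with 4 had them on 1 side. The dye effect passed for 4 of the 16 probes, those of MGLL, DDHD1 (2) and DDHD2 named above, which is 25% against 27.2% of all probes. Unadjusted, 6 of the 16 had a dye p under 0.05, against 40.4%. Moderated SEs had a median of 0.11 against 0.09 over the array, and for 14 of the 16 the interval lay within 1 log2 unit of 0. The exceptions were PNPLA3 EMBV3_36507 and ABHD5 EMBV3_42326. The SD of the Holstein levels was larger than that of the Jersey levels for 11 of the 16 probes, against 55.6% of all probes tested.

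Genes that act beside these enzymes were followed by the brightest probe of each, over 12348 genes in all, of which 8.45% had an unadjusted p under 0.05 with a mean above 0 and 7.41% with a mean below 0. Of 17 genes for droplet coats and regulators of lipolysis 13 were measured, 3 with a mean above 0 and 10 below, with a median of -0.08 against 0.01 over all genes, of which 52.7% had a mean above 0. One had an unadjusted p under 0.05, FAF2 (0.37 ± 0.13), a membrane protein of the endoplasmic reticulum and lipid droplets. PLIN2, the main droplet coat of most cells, was at -0.67 ± 0.31 (-0.50, -1.79, -0.58 and 0.17 in the pairs) and FITM2, which helps droplets to form, at -0.24 ± 0.12. G0S2 and HILPDA, both inhibitors of PNPLA2, were at -0.08 ± 0.12 and -0.02 ± 0.13. In pair 2 PLIN2 and PNPLA3 EMBV3_36507 had their lowest ratios, and PNPLA2 EMBV3_20061 and FAF2 (0.79) their highest. With 4 pairs, shared extremes cannot show that genes vary together, and this was not tested.

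Hormone and kinase control of lipolysis had 16 of 20 genes measured, 8 on each side, with a median of -0.03. The adenylyl cyclase ADCY6 (-0.44 ± 0.14, its second tested probe at 0.04) alone had an unadjusted p under 0.05. The adrenergic receptor ADRB3 was at -0.55 ± 0.25 and the inhibitory G protein subunit GNAI2 at -0.22 ± 0.10. Of the remaining PNPLA and DDHD proteins 3 were measured, all with means below 0 and none with an unadjusted p under 0.05: PLA2G6 (-0.37 ± 0.16), a phospholipase A2, the X-linked PNPLA4 (-0.41 ± 0.32) and SEC23IP (-0.07 ± 0.07), which carries a DDHD domain.

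Other hydrolases of glycerolipids and sterol esters had 10 of 19 measured genes above 0, with a median of 0.03. The unadjusted p was under 0.05 for 4 with a mean below 0 and for 1 above. ABHD4, a relative of ABHD5 that cleaves N-acyl phospholipids, was at -0.67 ± 0.11, below 0 on 8 of 8 arrays, with pair ratios of -0.60, -1.01, -0.46 and -0.62. Its limma adjusted p was 0.122 on pair means, and 0.0113 with the pair as a random block, a fit that 4.47% of all genes passed. ABHD16A, a phosphatidylserine lipase, was at -0.33 ± 0.07 (its second probe at 0.006) and the cholesterol ester hydrolase NCEH1 at -0.41 ± 0.11 (its other tested probes at 0.07 and 0.12). After adjustment on pair means, 0 genes of the 4 lists passed.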

How the data were processed

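The deposited scanner files hold each spot's mean foreground and local background in Cy3 and Cy5 as raw intensity, per the file headers, and a mark of the kind other, deposited as 0 or 1, for 131 ignored spots. The deposited value table holds log2 ratios whose steps are not given in the sources used here. It correlated with the ratios below at -0.98 to -0.97 and served as an alternative. Unassigned columns numbered 0.

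In R 4.3.3 with limma 3.58.1, normexp (offset 50) and loess within arrays were applied, with control and ignored spots at weight 0. A probe was kept when, in 1 breed or the other, it was over the mean plus 2 SD of 153 negative controls on 4 or more of 8 arrays, which left out 11665. Of 24 ways to join arrays of opposite dyes, that with the highest summed residual correlation was taken (0.46 to 0.71 within pairs, -0.36 to -0.02 otherwise); it joins neighbouring arrays. Pair means were tested against 0 (lmFit, eBayes, Benjamini-Hochberg, threshold 0.05). Whether pairs are separate samples is not stated, so p-values measure the spread between these samples, which may be technical. The number of arrays limits precision. A fit of 8 arrays used the pair as a random block (consensus correlation 0.31) and gave the dye effect; slide was tested as a term on pair means. Levels were scaled between arrays by Aquantile. The procedure was tested on simulated data.

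Names came from the array annotation, updated by RefSeq synonyms (assembly ARS-UCD2.0, used for names and chromosomes). No probe, promoter or protein sequences were used here. All member probes and, per list, the 3 genes of smallest p by brightest probe are named; MGLL EMBV3_26024, G0S2 and HILPDA are given for their roles or values after these were seen. Members, lists and alternatives were chosen with earlier results of these data known. Alternatives covered background correction, normalization, the dim filter, replicates, pairing, slide, variance prior, value source and the probe per gene.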

Additional observations from a re-analysis of the deposited data

Results flagged for a closer look

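PNPLA6 stood out in pair 3, where the log2(Holstein / Jersey) of EMBV3_29889 was 0.60 while the other 3 pairs lay between 0.12 and 0.20. The gap to the nearest pair, divided by the range, was 0.835, past Dixon's 95% limit for 4 values. Of 19 probes checked this was the 1 past the limit, and chance gives about 1 in 20 such cases; 5.48% of all probes tested were past it. Both arrays of pair 3 were high, at 0.69 and 0.51. Without that pair the mean was 0.15.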

How the results depend on the processing

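The number of member probes past the adjusted threshold stayed at 0 under other background corrections, median centring and no dim filter. The same held for probes above background everywhere (5 members tested), the slide as a term, another variance prior and the deposited table. It also held with the replicate block and without each pair. Aquantile leaves the ratios as they are, so it repeated the main fit by construction. For 8 arrays without a block, 2 of the 16 member probes passed (DDHD1 EMBV3_01735 and DDHD2 EMBV3_11996), against 2054 of 32033 probes over the array. When arrays were matched the other way within slides, which averages arrays of different pairs, 5 of the 16 passed, against 3862 of 32129. Over the array the count of 0 became 48 among the 14019 probes above background everywhere, 5 higher in Holstein and 43 in Jersey. Of these 14019 probes 2775 had an unadjusted limma p under 0.05, against 4483 of 32129 in the main setting. Why the count rose was not tested. With the replicate block the count over the array was 1209 of 32033. Leaving out single pairs gave 0 to 2. Of 261 member values 117 repeat the mean by construction, because the setting changes the test and not the mean or, for Aquantile, neither. Of the other 144, 12 changed sign. PNPLA8 became 0.0021 without background correction, 0.029 with median centring and 0.0086 in the deposited table, turned to Holstein over Jersey. MGLL EMBV3_26309 became -0.0025 with subtraction, and DDHD1 EMBV3_05659 -0.00055 with median centring; the cause was not tested. As pairs were left out, PNPLA2 EMBV3_20061 ran from -0.17 to 0.37, PNPLA8 from -0.23 to 0.15, MGLL EMBV3_26309 from -0.032 to 0.12, DDHD1 EMBV3_05659 from -0.077 to 0.098 and DDHD1 EMBV3_35946 from -0.032 to 0.033. The other 11 probes kept their sign in the alternatives that could move the mean. The unadjusted limma p of PNPLA6 ran from 0.0187 (8 arrays without a block) to 0.123 (without pair 3). It was 0.0958 without background correction. That of DDHD1 EMBV3_01735 ran from 0.0008 (other matching) to 0.111 (median centring). For DDHD2 EMBV3_11996 it ran from 0.00174 (other matching) to 0.0363 (without pair 4). At 3 SD over the negative controls 15 of the 16 probes passed the filter. Signal over background limits the rest: 5 of the 16 were above it on 8 arrays in both breeds.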
